A study of Mus musculus with 2 samples.

Results

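Dividing T cells of 4T1 mammary tumours were described from single-cell RNA sequencing. The members were selected on measured transcripts, as the barcodes with T cell transcripts and at least 2 unique molecular identifiers (UMIs, each standing for a captured transcript) of the division genes Mki67 and Top2a together. They numbered 139 of 1011 T cells, 71 of 527 in the β-elemene library and 68 of 484 in the vehicle library, within 21664 kept barcodes. A barcode counted as a T cell if it held at least 2 UMIs from at least 2 of 4 genes (Cd3d, Cd3e, Cd3g and Trbc2), at most 2 UMIs of the macrophage genes C1qa, C1qb and C1qc together, and under 10 UMIs of the keratins Krt8 and Krt18 per 10000. Other T cells, the comparison used below, were the 384 and 340 barcodes of the same gate in the β-elemene and vehicle libraries with no UMI of Mki67 or Top2a.

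In both groups, 1000000 cells of 4T1, a mouse mammary carcinoma line used as a model of triple-negative breast cancer, had been placed in the mammary fat pad in Matrigel and phosphate-buffered saline. The β-elemene group then received β-elemene, a sesquiterpene found in medicinal plants, by daily intraperitoneal injection at 30 mg/kg. The vehicle group received normal saline in equal volume on the same schedule. After 18 days the tumours were dissociated, red cells were lysed, and 1 library per group was made with 3' droplet chemistry. The labels used here give no strain, sex or age of the mice and no number of tumours behind a library. With a single library on each side there is no replicate check of any difference between the groups, and none was tested. Between the groups a gene was called higher or lower when the fold reached 1.5 and the exact 95% interval of the ratio excluded 1. These intervals cover counting error only and do not cover UMIs that sit together in a few cells.

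An activated T cell multiplies before it acts, and T cells in cycle within a tissue are usually ones that were recently stimulated. Cyclins and their kinases drive the cycle, DNA and histones are made in S phase, and the chromosomes are condensed and pulled apart in mitosis with kinesins, condensins and the spindle checkpoint. Mki67 coats mitotic chromosomes and Top2a untangles DNA, and both transcripts build up from S phase to mitosis.

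The libraries held 157282740 UMIs in the β-elemene library and 168750895 UMIs in the vehicle library. Members had a median of 7994 UMIs in the β-elemene library and 8075 UMIs in the vehicle library, against 4164 and 4173 UMIs in other T cells of the same libraries. The libraries shared 37 barcode sequences, and 0 of the members were among them. Scrublet called 2 members of the β-elemene library and 0 of the vehicle library as doublets, and they were kept. In 6 members, 2 from the β-elemene library and 4 from the vehicle library, marker genes of another cell type held at least 1% of the UMIs, and these barcodes carried 23297 to 45415 UMIs each. In all 6, fibroblast and mural cell markers held at least 1% of the UMIs. A β-elemene member with 45415 UMIs also held 3026 UMIs of the antibody gene Igkc. Summed fibroblast and mural cell markers reached 2237 CPM (counts scaled to a library sum of 1000000 UMIs) in β-elemene members and 6826 CPM in vehicle members, against 106 and 166 CPM without the 6 barcodes. Results between the groups are therefore also given without these 6 mixed barcodes where that changed a call or moved a list, a choice made after seeing the data.

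The label was checked on Cd8a and Pclaf, which the rule did not use. Cd3g, a chain of the T cell receptor complex, belonged to the rule, so its 826 CPM in β-elemene members and 667 CPM in vehicle members, against 961 and 739 CPM in other T cells, are a description. Cd8a, the co-receptor of cytotoxic T cells, was seen in 53.5% of β-elemene members and 54.4% of vehicle members. In other T cells Cd8a was seen in 32.3% and 34.1%. Among neutrophil-like barcodes, which should lack it, it was seen in 0 of 1490 in the β-elemene library, which allows a share of up to 0.247%, and in 0.325% in the vehicle library. Pclaf, a clamp-binding protein of replication forks, was seen in 66.2% of β-elemene members and 72.1% of vehicle members. In other T cells it was seen in 1.82% and 3.24%, and in neutrophil-like barcodes, which do not divide, in 1.14% and 1.52%. The median depth of neutrophil-like barcodes was 2021 UMIs in the β-elemene library and 1980 UMIs in the vehicle library, below that of the members. Of them, 1.14% and 1.19% reached the limit of 2 UMIs of Mki67 and Top2a.

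Members at the limit looked unlike the bulk of the members. Of the 18 β-elemene and 16 vehicle members with exactly 2 UMIs of Mki67 and Top2a, 16.7% and 31.3% held Pclaf. Just outside the limit, with a single UMI, the shares were 2.78% of 72 β-elemene cells and 10.5% of 76 vehicle cells. With 5 or more UMIs, reached by 42 members in each library, the shares were 92.9% and 88.1%. The summed genes of G2 phase and mitosis followed the same order, with 1139 and 1307 CPM at a single UMI, 1476 and 2230 CPM at exactly 2, and 8795 and 10490.0 CPM at 5 or more, each time β-elemene before vehicle. The members nearest the limit thus sat closer to cells outside it than to the rest, and these values are a description, since Mki67 and Top2a chose the members.

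**Figure D1:**
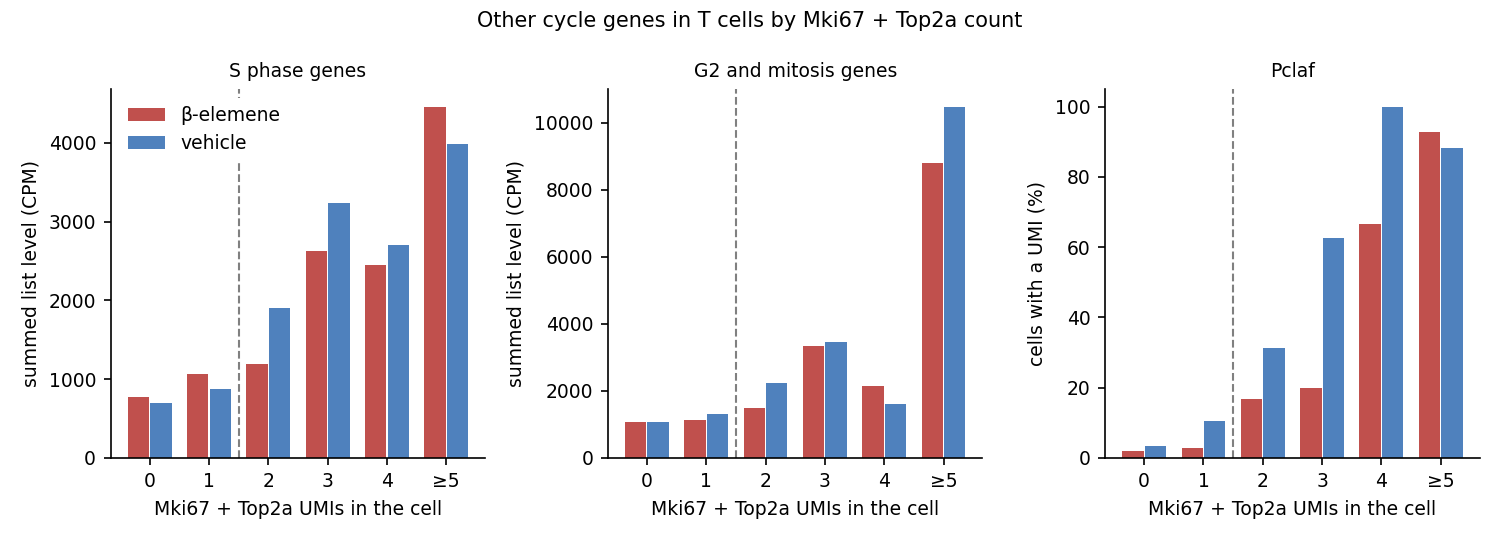
Cycle genes by the UMIs of Mki67 and Top2a in a T cell, from 0 to 5 or more, for the β-elemene and vehicle libraries. The panels give the summed S phase list in CPM, the summed G2 and mitosis list in CPM and the percentage of cells with a UMI of Pclaf, and the dashed line is the limit of 2 UMIs. G2 and mitosis genes stood at 1476 and 2230 CPM at the limit and at 8795 and 10490.0 CPM with 5 or more UMIs.

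Set against other T cells of their own library, the members stood apart in the cycle itself, as their choice implies. Genes were called here if at least 2-fold apart in the same direction in both libraries, with both intervals excluding 1, and the rule on Mki67 and Top2a makes the cycle part a description. Of 5449 genes, 163 (2.99%) were higher in members and 24 (0.44%) were lower. Among the higher genes were 17 of 19 S phase genes, 27 of 27 genes of G2 and mitosis and 13 of 13 replication-dependent histones with enough UMIs. The median log2 ratio of the G2 and mitosis genes was 3.87 in the β-elemene library and 3.98 in the vehicle library, against 0.05 and 0.06 over all genes.

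The linker histone Hist1h1b stood at 1000.3 CPM in β-elemene members against 13.5 CPM in other T cells of that library, and at 1012 CPM in vehicle members against 12.1 CPM. The survivin gene Birc5, which guides chromosome attachment, had 220 CPM in β-elemene members against 7.04 CPM in other T cells, and 235 CPM in vehicle members against 5.19 CPM. Clspn, which signals stalled forks, stood 52.1-fold higher in the β-elemene library and 32.6-fold higher in the vehicle library. Hist1h2af was not seen in other T cells of either library, and against a floor of 3 UMIs over the sum it was at least 54.4-fold higher in β-elemene members and at least 69.7-fold higher in vehicle members. Outside the cycle lists, the highest included Stmn1, a microtubule-destabilising protein, with 395 CPM in β-elemene members against 30.9 CPM in other T cells. In the vehicle library Stmn1 had 303 CPM in members against 13.8 CPM in other T cells. Spc24, a kinetochore part, was 29.9-fold higher in the β-elemene library and 54.9-fold higher in the vehicle library. Rbl1, a pocket protein that restrains E2F, and E2f3, an activator of S phase genes, were the called genes among 18 tested for entry and brakes, at 4.01- and 3.06-fold in the β-elemene library and 3.29- and 2.83-fold in the vehicle library.

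**Figure D2:**
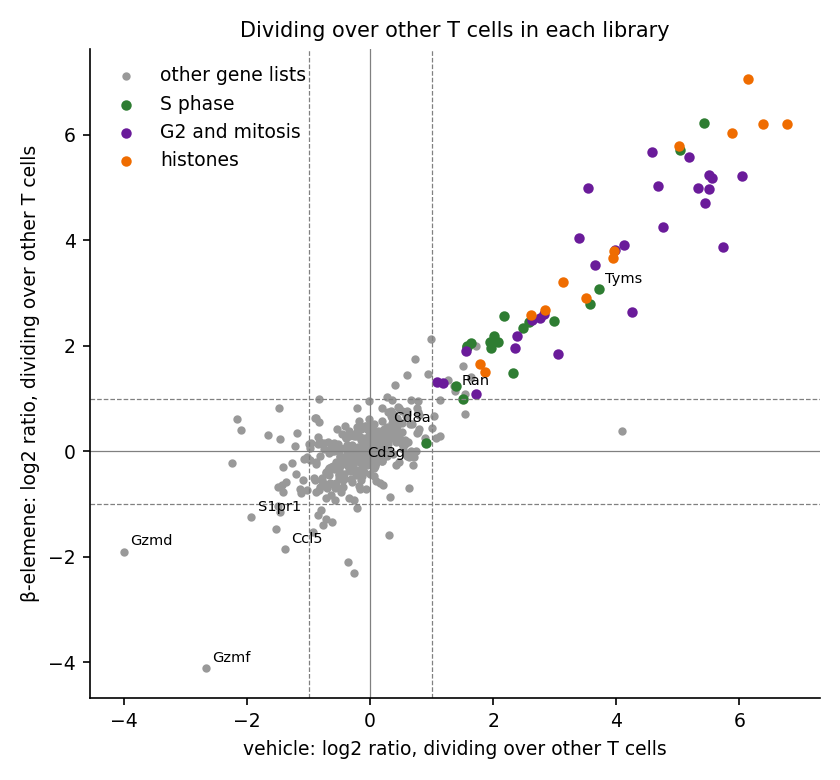
Log2 ratio of members to other T cells for the tested genes of the 25 gene lists. The vehicle library is on the horizontal axis and the β-elemene library on the vertical axis. Colours mark the S phase, G2 and mitosis and histone lists and dashed lines mark 2-fold. The cycle lists fill the upper right corner in both libraries, and genes of the other lists gather around 0. Genes outside the lists, such as Spc24, are not drawn.

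Growth genes passed the same limit in part, more often than the 2.99% of all genes. In the list of Myc targets and ribosome making, 3 of 21 tested genes were higher in members: the nuclear transport GTPase Ran (2.22-fold in the β-elemene library, 2.61-fold in the vehicle library), its partner Ranbp1 and the RNA-modifying enzyme Dkc1. Of 16 genes of nucleotide and folate synthesis, 4 were higher, the thymidylate enzymes Tyms and Dtymk, the ribonucleotide reductase subunit Rrm1 and the mitochondrial folate enzyme Mthfd2. Tyms and Rrm1 also belong to the S phase list. Deeper barcodes show more genes, so shares were also taken after each cell was thinned to 2000 UMIs. Ran was then seen in 53.5% of β-elemene members against 30.1% of other T cells, and in 50.7% of vehicle members against 23.5%. Stmn1 was seen in 43.7% of β-elemene members against 5.40% of other T cells, and in 47.8% of vehicle members against 3.54%.

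Genes of T cell receptor signalling lay near a ratio of 1 in their medians, at log2 ratios of -0.12 in the β-elemene library and -0.15 in the vehicle library. Of these 25 genes of the T cell receptor complex and its signal, 0 were called in either direction. Over all genes 2.99% were higher and 0.44% lower, so a list of this size can hold no call without standing apart. The killing genes Gzmb and Nkg7 were at 0.904 and 0.905 of other T cells in the β-elemene library and 0.843 and 0.953 in the vehicle library, and neither was called. Ccl5, a chemokine that draws T cells, was lower in members, with 759 CPM in the β-elemene library against 2741 CPM in other T cells, and 982 CPM in the vehicle library against 2563 CPM. S1pr1, the receptor T cells use to leave tissue, was at 0.420 of other T cells in the β-elemene library and 0.263 in the vehicle library. Slamf6, a receptor of less differentiated T cells, was at 0.487 and 0.353, and Ccl1, a chemokine of activated T cells, at 0.359 and 0.349. The granzymes Gzmd (0.268 and 0.0623) and Gzmf (0.0578 and 0.158) were also lower. The neutrophil genes S100a8 and S100a9 headed the lower genes, and the summed neutrophil markers were at 267 CPM in β-elemene members against 1057 CPM in other T cells, and at 83.4 CPM in vehicle members against 1347 CPM. By cells, S100a9 was seen in 56.3% of β-elemene members against 32.3% of other T cells, and in 22.1% against 22.6% in the vehicle library. Among other T cells, neutrophil markers held at least 1% of the UMIs in 5 β-elemene and 6 vehicle barcodes. Fibroblast and mural cell markers did so in 9 and 14. The part of these barcodes in the lower genes was not tested.

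Members made up a like share of T cells in both libraries. They were 13.5% of T cells in the β-elemene library (exact 95% interval 10.7% to 16.7%) and 14.05% in the vehicle library (11.1% to 17.5%), a difference of -0.577 points with an interval of -4.87 to 3.67 points. After thinning to 2000 UMIs, 8.20% (36 of 439) and 8.86% (35 of 395) still reached the limit. The interval leaves room for a difference of several points in either direction.

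CD8 cells, with a UMI of Cd8a or Cd8b1 and none of Cd4, made up 45 of 71 β-elemene members (63.4%) and 38 of 68 vehicle members (55.9%). Their share among other T cells was 40.6% and 39.1%, so members exceeded other T cells by 22.8 points in the β-elemene library (10.1 to 34.1) and by 16.8 points in the vehicle library (3.84 to 29.0). The members are deeper barcodes, in which a co-receptor is missed less often. After thinning, the CD8 share was 50.0% of members against 39.7% of other T cells in the β-elemene library, and 54.3% against 38.7% in the vehicle library. The intervals of these thinned differences, -6.02 to 26.6 points and -1.39 to 31.7 points, include 0. Between the groups, the CD8 share of members differed by 7.50 points (-8.62 to 23.1). Conventional CD4 cells were 10 β-elemene members and 5 vehicle members, and Foxp3 cells, the regulatory T cells, were 4 and 8. Both co-receptors were seen in 0 and 2 members, and neither in 12 and 15.

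CD8 members differed from the other members in effector genes and immediate early genes, and in 3 histones among the cycle genes. Of 1879 genes, 46 (2.45%) were at least 2-fold higher in CD8 members in both libraries and 47 (2.5%) at least 2-fold lower. Of 12 cytotoxic genes tested, 6 were higher and 0 were lower. Gzmb, the granzyme that cuts caspases, stood at 641 CPM in CD8 members against 99.6 CPM in other members of the β-elemene library, and at 716 CPM against 112 CPM in the vehicle library. Nkg7, needed for granule release, was 6.11-fold higher in the β-elemene library and 7.41-fold higher in the vehicle library. The inhibitory receptor parts Klrd1 (3.13- and 3.78-fold) and Klrc1 (3.91- and 4.87-fold) and the chemokine Ccl5 (7.46- and 7.75-fold) followed the same order. Lower in CD8 members were the interleukin-2 receptor chain Il2ra (0.109 and 0.247), the costimulatory receptors Tnfrsf4 (0.166 and 0.0618) and Tnfrsf18 (0.225 and 0.290), and the helper transcription factors Gata3 (0.273 and 0.290) and Maf (0.0739 and 0.0928). Of 18 immediate early and heat shock genes, taken up again below, 6 were lower in CD8 members (Fos, Fosb, Jun, Dusp1, Atf3 and Nr4a1) and 0 higher. Without the mixed barcodes 4 of the list were lower. None of the 14 S phase genes or the 23 genes of G2 and mitosis tested was called in both libraries. Of 12 histones 3 were higher, beside the 2.45% of all genes, and 2 were higher without the mixed barcodes. Summed histones stood at 10598 CPM in CD8 members against 5930 CPM in other members of the β-elemene library, and at 13394 CPM against 5636 CPM in the vehicle library. Summed G2 and mitosis genes stood at 6801 CPM against 6436 CPM in the β-elemene library, and at 10272 CPM against 5391 CPM in the vehicle library. Leaving out the mixed barcodes, the G2 and mitosis sums were 7407 against 5876 CPM and 10740 against 6685 CPM. Apart from the immediate early genes, each of these named genes kept its call without the 6 mixed barcodes.

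Between the groups, 197 of 4098 genes (4.81%) were higher and 312 (7.61%) lower in β-elemene members, around a median log2 ratio of -0.02. Without the 6 mixed barcodes, 151 of 3536 genes (4.27%) were higher and 159 (4.5%) lower. Of the calls over all members, 101 of the higher genes and 106 of the lower genes were also called without those barcodes. Immediate early and heat shock genes, which cells raise within minutes of a stimulus or stress, changed with the barcodes. Of 22 tested with them, Jund rose, Fos and Egr1 fell, and the median log2 ratio was 0.06. Without them 8 of 22 rose and 0 fell, 17 had ratios above 1 and the median was 0.30. The 8 were the AP-1 parts Jun (2.30), Fosb (2.19) and Jund (1.63), the stress factor Atf3 (2.10), the mRNA decay factor Zfp36 (2.09) and the heat shock genes Hspa1a (4.47), Hspa1b (2.83) and Hsph1 (1.70). The transcription factor Fos had 191 CPM in β-elemene members against 395 CPM in vehicle members, a ratio of 0.482 with the barcodes and 1.23 without them. Within CD8 members without the mixed barcodes Jund was the single call of 12 tested. Jun, Fosb and Atf3 were among the genes lower in CD8 members than in other members of both libraries. In other T cells the list's median was -0.18, with 1 gene higher and 5 lower. Cd44, an adhesion receptor of activated T cells and fibroblasts, stood at a ratio of 0.640 with the barcodes and 1.12 without them.

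Within the CD8 members, genes of G2 phase and mitosis were lower with β-elemene. These were 45 β-elemene cells with 414811 UMIs and 38 vehicle cells with 325451 UMIs, and 147 of 2355 genes (6.24%) were called higher and 174 (7.39%) lower, with a median log2 ratio of -0.04. Of 29 genes of G2 and mitosis tested, 17 fell and 1, the condensin Smc2, rose, and 26 had ratios below 1. The list's median log2 ratio was -0.63. Without the mixed barcodes, where 73 of 2131 genes (3.43%) were called higher and 117 (5.49%) lower, 12 of the 29 fell, Smc2 rose, and the median was -0.53. Leaving out, gene by gene, the cell with the most UMIs in each library left the median at -0.63. Since Mki67 and Top2a, which chose the members, belong to the same programme, both were left out of the list. Over all members, CD8 or not, they stood at 538 and 573 CPM in the β-elemene library, against 740 and 704 CPM in the vehicle library. A β-elemene CD8 member held a median of 3 Mki67 and 4 Top2a UMIs, against 6 and 6 in a vehicle CD8 member. At least 10 UMIs of both together were held by 19 of 45 β-elemene CD8 members and 22 of 38 vehicle CD8 members.

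The genes that fell span the course of mitosis. Tpx2, which builds the spindle and activates the Aurora A kinase, had 89.2 CPM in β-elemene CD8 members against 197 CPM in vehicle CD8 members, a ratio of 0.454 (0.294 to 0.690). Ube2c, the conjugating enzyme that feeds cyclins to destruction at mitotic exit, had 149 CPM against 316 CPM, a ratio of 0.472 (0.339 to 0.653). Both were lower without the mixed barcodes too, at 0.496 and 0.489. Racgap1, a part of the central spindle, was at 0.475 (0.270 to 0.818), and Hmmr, which links microtubules to the spindle pole, at 0.494 (0.312 to 0.773). Hmgb2, a DNA-bending chromatin protein, was the most abundant of them, with 801 UMIs in β-elemene CD8 members and 1056 UMIs in vehicle CD8 members. That is 1931 CPM against 3245 CPM, a ratio of 0.595 (0.542 to 0.653). The kinetochore protein Cenpf was at 0.576, the cyclin Ccna2 at 0.549, and the spindle protein Nusap1 at 0.597. The kinase Cdk1 was at 0.806 (0.499 to 1.30) and was not called. Smc2 had 352 CPM against 234 CPM, a ratio of 1.51 (1.13 to 2.02).

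**Figure D3:**
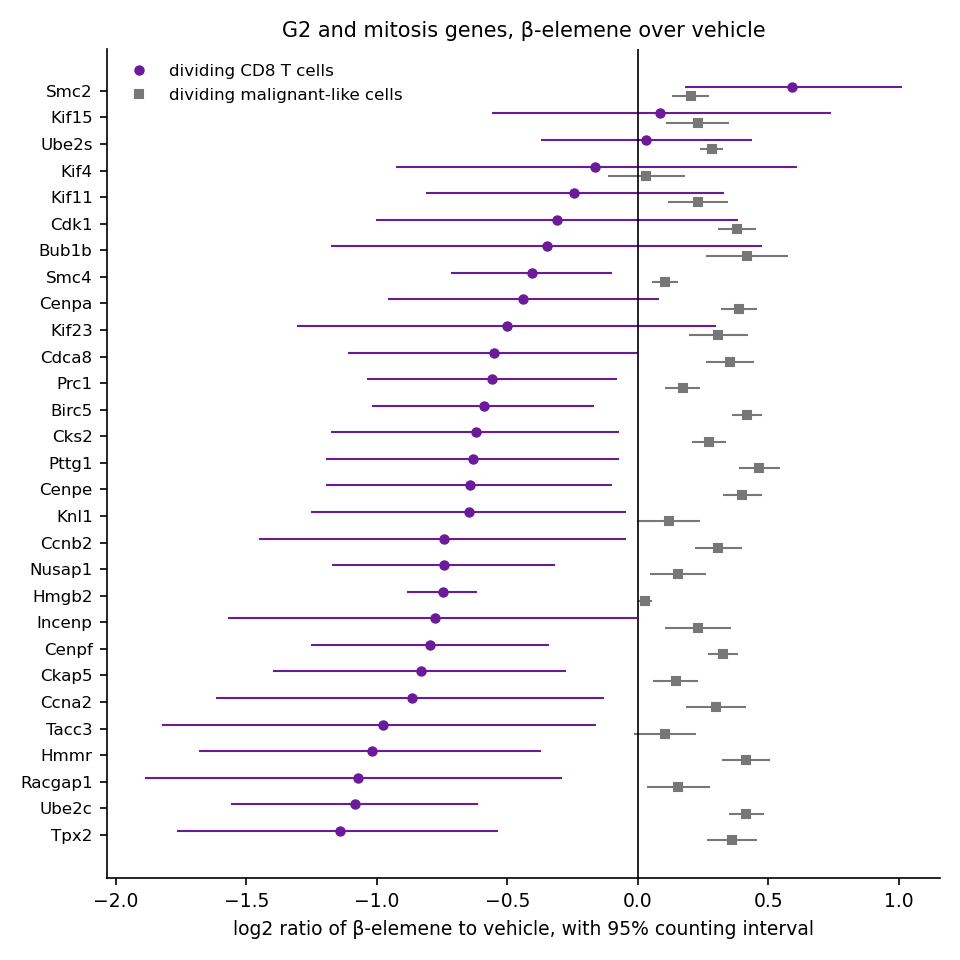
Log2 ratio of β-elemene to vehicle for the 29 tested genes of G2 and mitosis, with 95% counting intervals, in dividing CD8 T cells (purple) and in dividing malignant-like cells (grey). The line at 0 is a ratio of 1: in dividing CD8 T cells 26 of 29 points lay left of it, with ratios of 0.454 for Tpx2 and 1.51 for Smc2, and the points of dividing malignant-like cells lay right of it.

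Counted over cells, the difference was less certain. The G2 and mitosis list took a median of 0.564% of a CD8 member's UMIs in the β-elemene library (lowest 0.0137%, highest 2.51%) and 0.955% in the vehicle library (0.0684% to 2.58%), so the ranges overlap almost fully. At least 1% was reached by 13 of 45 β-elemene CD8 members (28.9%) and 17 of 38 vehicle CD8 members (44.7%). That is a difference of -15.8 points with an interval of -35.0 to 4.71 points. More G2 and mitosis UMIs than S phase UMIs were held by 64.4% of β-elemene CD8 members and 76.3% of vehicle CD8 members. Fewer cells in mitosis and less mitotic RNA per cell cannot be told apart in the sums.

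The order was the opposite in dividing malignant-like cells and depended on the mixed barcodes in members that were not CD8. These members were 26 in the β-elemene library and 30 in the vehicle library, and 188 of 1945 genes (9.67%) were called higher and 190 (9.77%) lower. Of 17 genes of G2 and mitosis tested there 6 rose (Birc5, Cenpa, Ube2c, Cks2, Cdca8 and Pttg1), 0 fell, and the median log2 ratio was 0.31. The summed list stood at 6436 CPM in β-elemene cells against 5391 CPM in vehicle cells. Without the mixed barcodes 126 of 1423 genes (8.85%) were called higher and 79 (5.55%) lower. Of 13 genes of the list tested then 0 rose, Cenpf fell and the median was 0.15, while the summed list stood at 5876 CPM against 6685 CPM, with β-elemene lower. At least 1% was reached by 8 of 26 β-elemene cells and 5 of 30 vehicle cells there. Over all members together the median was -0.23, with 33 of 41 genes below 1, of which 5 fell (Cdc25b, Tpx2, Ckap2, Racgap1 and Dlgap5) and Smc2 rose. Without the mixed barcodes the median was -0.38 and 35 of 38 genes were below 1, with 6 lower and 0 higher. In dividing malignant-like cells, 688 in the β-elemene library and 891 in the vehicle library, 59 of 60 listed genes had ratios above 1, with a median of 0.28 beside 0.01 over all genes. Tpx2 was at 1.28 there and Ube2c at 1.33. The differences between these cell classes were not tested.

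**Figure D4:**
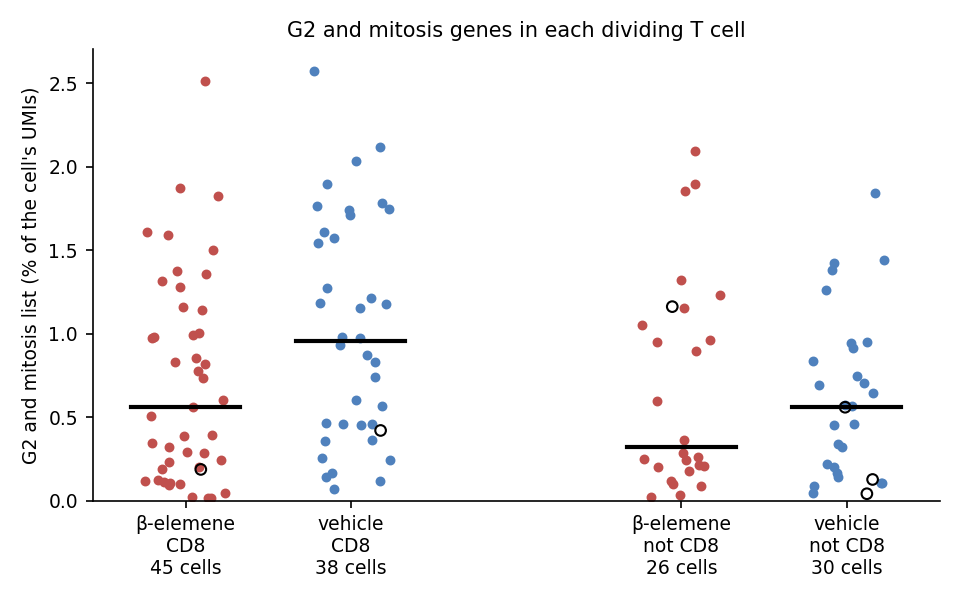
Percentage of each member's UMIs taken by the G2 and mitosis list, for CD8 members and members that were not CD8, β-elemene left of vehicle. Each point is a cell, black bars are medians (0.564% and 0.955% in CD8 members) and open black circles are the 6 mixed barcodes.

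S phase genes lay near a ratio of 1 in their medians. Of 29 tested in all members, Dut, which removes dUTP before it enters DNA, rose at 1.62 (1.29 to 2.04), and Rpa2, a subunit that coats single strands, fell at 0.578 (0.334 to 0.979). Dut was at 1.57 without the mixed barcodes and still called, while Rpa2 was then at 0.596 (0.340 to 1.03) and not called. The S phase median was 0.03 over all members and -0.03 in CD8 members, and -0.03 and 0.04 without the mixed barcodes. Of 18 tested in CD8 members, 12 had ratios below 1, Hells fell and 0 rose. Over all genes 4.81% rose and 7.61% fell in all members, and 6.24% and 7.39% in CD8 members. Summed S phase genes stood at 3619 CPM in β-elemene members and 3460 CPM in vehicle members, and G2 and mitosis genes at 6667 and 7844 CPM. Histones had a median of -0.15 over all members and -0.32 in CD8 members, where 3 of 15 fell. Without the mixed barcodes the medians were -0.27, with Hist1h4h and Hist2h2ac fallen of 15, and -0.35. Among entry genes and brakes, the inhibitor Cdkn1a rose at 1.96 (1.39 to 2.78) and the cyclin Ccnd3 at 1.54 (1.06 to 2.26), and Lin54, the DNA-binding part of the MuvB complex that drives late cycle genes, fell at 0.620 (0.425 to 0.898). All 3 kept these calls without the mixed barcodes. Lin54 was also lower in dividing malignant-like cells, with 17.1 CPM in the β-elemene library against 25.6 CPM in the vehicle library, a ratio of 0.667 (0.581 to 0.764). Ccnd1 also fell, at 0.265, but it was under the UMI minimum without those barcodes.

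Late cycle genes share a known promoter code, so the promoters of genes that fell in CD8 members are shown here. The cell cycle genes homology region (CHR), TTTGAA, is read by MuvB complexes, and the CCAAT box nearby by NF-Y. In RefSeq promoters of GRCm38.p6, from 250 bases before to 50 after the start, TTTGAA was found on either strand in 34 of 47 G2 and mitosis genes (72.3%), 4 of 38 S phase genes (10.5%) and 18.1% of all 27025 promoters. CCAAT on either strand was in 72.3%, 55.3% and 37.9%. TTTGGCGC, an E2F-type site, was in 4.26%, 15.8% and 0.537%, and TTTCCCGC in 0%, 21.1% and 1.11%. Of 14 histone promoters 7 held TTTGAA (50.0%) and 12 held CCAAT (85.7%). Each motif was counted by itself, and TTTGAA and CCAAT can share an end letter. Of the 17 genes that fell, 14 had a window, and 3 held both CHR and CCAAT within the 150 bases before the start. Of all listed G2 and mitosis genes 12 of 47 (25.5%) held both there, as did 4 of 14 histones, 0 of 38 S phase genes and 2.32% of all promoters. These were Ube2c (chr2:164769779-164769928, plus strand), Ckap5, a microtubule polymerase (chr2:91526612-91526761, plus strand, ratio 0.562), and Hmgb2 (chr8:57511693-57511842, plus strand). Capitals mark CHR (TTTGAA or TTCAAA) and CCAAT (or ATTGG) letters, and a match of letters is not a measured site.
Ube2c: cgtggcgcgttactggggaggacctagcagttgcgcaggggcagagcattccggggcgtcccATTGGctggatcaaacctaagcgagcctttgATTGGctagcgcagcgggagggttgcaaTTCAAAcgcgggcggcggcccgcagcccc
Ckap5: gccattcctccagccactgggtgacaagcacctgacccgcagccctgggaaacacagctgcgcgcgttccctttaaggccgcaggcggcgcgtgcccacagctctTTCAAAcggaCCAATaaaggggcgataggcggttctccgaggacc
Hmgb2: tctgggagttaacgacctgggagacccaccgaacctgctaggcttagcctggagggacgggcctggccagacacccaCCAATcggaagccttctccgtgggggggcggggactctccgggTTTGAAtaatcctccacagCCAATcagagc

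Summed over cells, interferon-γ response genes stood higher in β-elemene members. Of 17 interferon-γ response genes tested, 6 rose and 0 fell, 15 had ratios above 1, and the median log2 ratio was 0.57. Over all genes 4.81% rose and 7.61% fell. Without the mixed barcodes 2 of 15 rose, beside 4.27% of all genes, 12 had ratios above 1, and the median was 0.30. The GTPases Igtp and Gbp6, which attack vacuoles of intracellular microbes, rose either way. Igtp had 82.3 CPM in β-elemene members against 29.3 CPM in vehicle members, a ratio of 2.81 (1.64 to 5.01), and 2.53 without those barcodes. A UMI of Igtp was seen in 43.7% of β-elemene members and 19.1% of vehicle members. Gbp6 had 79.3 CPM against 29.3 CPM, a ratio of 2.70 (1.57 to 4.84), and 2.35 without those barcodes. Gbp2 (2.15), the checkpoint ligand Cd274 (1.83), the immunoproteasome subunit Psmb9 (1.55) and the membrane tether Bst2 (1.89) were called only with the mixed barcodes kept. For Cd274 the ratio without them was 1.09, and 27 of its 78 UMIs in the β-elemene library sat in a single cell. The transcription factor Irf1 was at 1.29 and was not called. Cell by cell, the list took a median of 0.191% of a β-elemene member's UMIs (lowest 0.0170%, highest 0.935%). In vehicle members it took 0.158% (0.0147% to 0.840%), so the ranges overlap almost fully. In CD8 members the medians were 0.191% and 0.169%.

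Antigen presentation genes went the same way, and type I interferon genes did so by median but not by sum without the mixed barcodes. Among 19 genes of MHC class I presentation 4 rose, 0 fell and 15 had ratios above 1. The median was 0.37, and 0.23 without the mixed barcodes. Over all genes 4.81% rose and 7.61% fell, and 4.27% and 4.5% without the mixed barcodes. The non-classical molecule H2-T23 had 154 CPM in β-elemene members against 68.0 CPM in vehicle members, a ratio of 2.27 (1.58 to 3.31), and H2-Q4 stood at 1.80 (1.32 to 2.46). Both rose without the mixed barcodes too, at 2.01 and 1.54. The classical H2-D1 was at 1.31 and B2m, the shared light chain, at 1.21, under the fold limit. Of 10 type I interferon genes 5 rose, among them the ubiquitin-like Isg15 at 2.24 (1.54 to 3.32) and the nucleic acid sensor Zbp1 at 1.97 (1.33 to 2.96), with a list median of 0.55. Isg15 at 1.72 and Zbp1 at 1.61 kept their calls without those barcodes, while Ifi27l2a fell there at 0.663 and the median was 0.39. The summed type I list stood at 2188 CPM in β-elemene members against 2028 CPM in vehicle members. Without the mixed barcodes it stood at 2239 CPM against 2326 CPM, with β-elemene lower.

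In other T cells the lists lay nearer to 1. Their median log2 ratio between the groups was 0.06 for the interferon-γ list, -0.19 for the type I list and 0.18 for MHC class I, beside -0.02 over all genes. Igtp was at 0.969 and Gbp6 at 0.764 in other T cells. Dividing malignant-like cells had medians of 0.22, 0.17 and 0.35 for the same lists. The summed macrophage and monocyte markers were 823 CPM in β-elemene members and 470 CPM in vehicle members. They hold 12 genes, of which Ccr2 and Ly6c2 are also T cell genes. Of the 12, Ms4a7 was at 0 in β-elemene members and none was at 0 in vehicle members. Natural killer markers summed to 185 and 144 CPM, with Klra4 and Klra8 at 0 in members of both libraries. Their part in the interferon result was not tested.

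**Figure D5:**
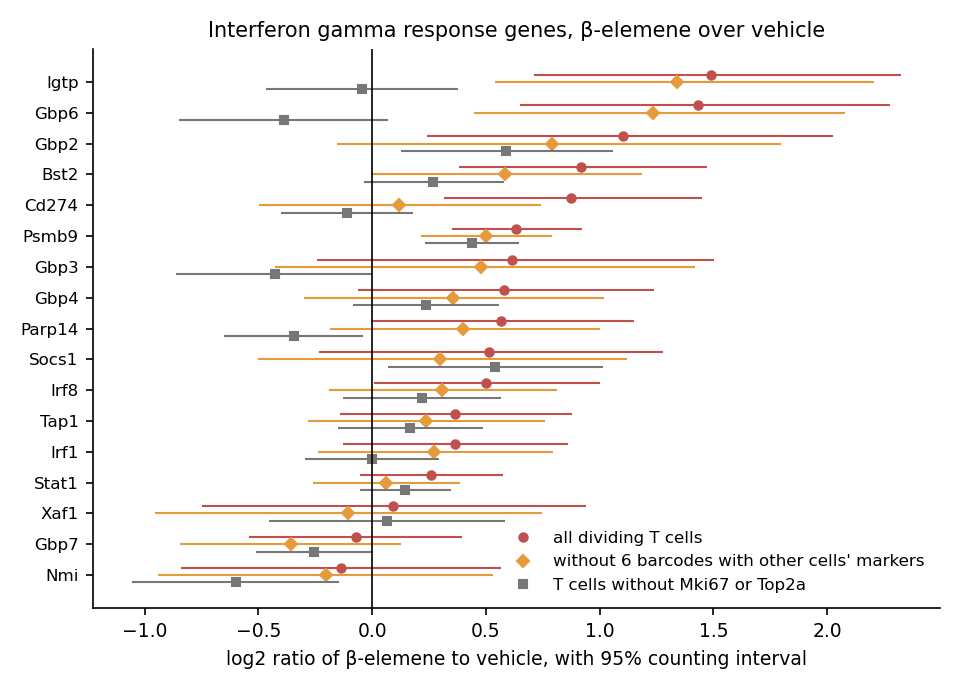
Log2 ratio of β-elemene to vehicle for genes of the interferon-γ response in all members, in members without the 6 mixed barcodes and in other T cells. Igtp and Gbp6 lie at ratios of 2.81 and 2.70 in all members, at 2.53 and 2.35 without the mixed barcodes and at 0.969 and 0.764 in other T cells.

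Glycolysis enzymes rose in part, and mostly with the mixed barcodes. Of 15 tested, 5 rose and 0 fell, beside 4.81% and 7.61% of all genes, with a median log2 ratio of 0.34. They were Pfkl, the liver form of the committing kinase (2.37), Tpi1 (1.54), Pgk1 (1.57), Pgam1 (1.64) and Eno1 (1.54). Without the 6 barcodes Pgam1, at 1.56, was the remaining call of 12 tested, beside 4.27% of all genes, and the median was 0.21. A single β-elemene cell held 73 of the 285 Pgk1 UMIs. In oxidative phosphorylation 1 of 29 genes fell, Atp5k, a small subunit of ATP synthase, with 236 CPM in β-elemene members against 405 CPM in vehicle members, a ratio of 0.584 (0.476 to 0.715). It was at 0.538 without the mixed barcodes and at 0.536 in other T cells. Nucleotide and folate synthesis, costimulation and cytokine receptors held no called gene among 15, 10 and 21 tested. With 4.81% higher and 7.61% lower over all genes, lists of these sizes can hold few or no calls without standing apart.

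Effector genes moved in both directions. Of 15 cytotoxic genes tested 4 rose and 2 fell, with the same calls without the mixed barcodes. Over all genes 4.81% rose and 7.61% fell, and 4.27% and 4.5% without those barcodes. Their median log2 ratio was 0.31, but -0.16 within CD8 members. Klrd1, with 273 CPM in β-elemene members against 164 CPM in vehicle members, rose at 1.67 (1.30 to 2.14), and its partner Klrc1 at 1.78 (1.34 to 2.39). Within CD8 members they were at 1.41 and 1.48, under the fold limit. Gzma rose at 2.01 (1.68 to 2.42), from 18.3% of β-elemene members and 19.1% of vehicle members. Gzmc rose at 1.70 with 111 of 145 UMIs in a single β-elemene cell, and Gzmf fell at 0.306 with 39 of 42 UMIs in a single vehicle cell. Serpinb6b, a granzyme inhibitor, fell at 0.655 (0.468 to 0.910). Gzmb and Nkg7 were at 1.06 and 1.08 and were not called.

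Checkpoint and memory genes gave single calls. Rgs16, a regulator of G protein signals, rose at 1.76 (1.21 to 2.58), and Tox, the transcription factor of exhausted cells, fell at 0.658 (0.493 to 0.874), both also without the mixed barcodes. In CD8 members Tox was at 1.13 and was not called. The receptor PD-1, encoded by Pdcd1, was at 1.23 (0.929 to 1.63) and was not called. The survival gene Bcl2 rose at 1.61 (1.32 to 1.98) and the memory marker Ly6c2 at 1.93 (1.49 to 2.51), while the lymph node homing receptor Ccr7 fell at 0.649 (0.441 to 0.947). For Ccr7, 34 of 73 vehicle UMIs sat in a single cell. Themis, a signal adaptor of the T cell receptor, rose at 2.01 (1.66 to 2.44), with 75 of 328 β-elemene UMIs in a single cell. In the regulatory T cell list, Il1rl1, the interleukin-33 receptor, fell to 15.2 CPM in β-elemene members, against 105 CPM in vehicle members. Areg, a tissue repair growth factor, fell to 15.2 CPM, against 63.3 CPM. Both kept their calls without the mixed barcodes, and the Foxp3 class counted 4 β-elemene cells and 8 vehicle cells.

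The genes with the widest ratios were in part those of single cells. On the higher side the 14 named genes were led by Il1b, an inflammatory cytokine, with 177 CPM in β-elemene members against 34.0 CPM in vehicle members, a ratio of 5.21 (3.28 to 8.63). For Il1b 56 of 116 β-elemene UMIs came from a single cell, and without the top cell of each library the ratio was 3.70. Summed neutrophil markers were at 267 CPM in β-elemene members and 83.4 CPM in vehicle members, and at 288 and 81.9 CPM without the mixed barcodes. Their part in Il1b and Cxcl2, and that of the macrophage markers given above, was not tested. Next came the ephrin ligand Efna5 (3.95, with 38 of 48 UMIs in a single cell), the transcription factor Sox4 (3.33, with 53 of 64 UMIs in a single cell), the interferon-induced chemokine Cxcl10 (3.24), the neutrophil chemokine Cxcl2 (3.16, with 101 of 208 UMIs in a single cell) and the scaffold Tanc2 (3.11, with 41 of 63). After Igtp and Gbp6 followed the pyrophosphate transporter Ank (2.52, with 47 of 69 UMIs in a single cell), Fgf13 (2.50), the adaptor Lax1 (2.47), which dampens T cell receptor signals, Lrig1 (2.47), the ubiquitin enzyme Ube2j2 (2.40) and Pfkl. Lax1 was seen in 45.1% of β-elemene members and 20.6% of vehicle members, with at most 4 UMIs in any cell. Without the top cell of each library Efna5 was at 1.23, Tanc2 at 1.28, Ank at 0.905 and Cxcl2 at 5.28. Of these 14 genes, 11 were also called without the mixed barcodes, and Fgf13, Lrig1 and Pfkl were under the UMI minimum there. Of the 28 named genes of both directions, 12 kept their calls without the top cells.

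On the lower side most of the 14 named genes had too few UMIs to be compared without the mixed barcodes, which carry fibroblast genes. Sdk1 (0.0987), Slit3 (0.101), the matrix protein Dcn (0.130), Bc1 (0.161), Col14a1 (0.186), Bmp1 (0.191), Lrmda (0.224), Cxcl1 (0.235), Tgfbr3 (0.236), Serping1 (0.247) and Gpm6b (0.247) were lower over all members. Without the mixed barcodes each of these was under the UMI minimum and so was not called. Their ratios there, on few UMIs, ran from 0 for Serping1 to 1.79 for Tgfbr3. Dcn stood at 53.4 CPM in β-elemene members against 411 CPM in vehicle members, with 140 of 266 vehicle UMIs in a single cell. Il1rl1 (0.145), Areg (0.241) and Tbc1d4 (0.210), a regulator of glucose transporter traffic, were the 3 of 14 called without those barcodes. For Tbc1d4 30 of 47 vehicle UMIs sat in a single cell.

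Against dividing malignant-like cells, few genes of mitosis passed the limit in both libraries, and more genes of cycle entry did. Of 11129 genes 1131 (10.2%) were at least 2-fold higher in members in both libraries and 1240 (11.1%) lower. Of 60 genes of G2 and mitosis, only Nusap1 was higher (2.61-fold in the β-elemene library, 3.69-fold in the vehicle library) and only Anln, a contractile ring protein, was lower (0.268 and 0.381). The libraries were not alike in this list. Its median log2 ratio was -0.10 in the β-elemene library and 0.53 in the vehicle library. Its sum was 6667 CPM in β-elemene members against 6102 CPM in malignant-like cells, and 7844 CPM against 5221 CPM in the vehicle library. Tpx2, at 0.894 and 2.02, passed 2-fold in the vehicle library only. Entry genes differed more, with 8 of 29 higher and 3 lower, beside 10.2% and 11.1% of all genes. Against other T cells, only Rbl1 and E2f3 of 18 entry genes tested were called, and none of the entry genes named next was. The cyclin Ccnd2 had 235 CPM in β-elemene members against 14.3 CPM in malignant-like cells, and 201 CPM in vehicle members against 10.8 CPM. Ccnd1 had 16.8 CPM against 814 CPM in the β-elemene library, and 63.3 CPM against 781 CPM in the vehicle library. The pocket proteins Rb1 (5.45- and 7.04-fold) and Rbl2 (5.92- and 8.19-fold) and E2f2 (9.43- and 9.25-fold) were higher in members, and the kinase Cdk4 was lower (0.332 and 0.288). Histones were higher in 9 of 17 cases, among them Hist1h2ap (2.36- and 2.68-fold), and S phase genes in 7 of 47, among them Pclaf (2.18- and 2.68-fold). The folate enzyme Mthfd2 was higher (5.08- and 4.20-fold) and the purine enzyme Paics lower (0.446 and 0.422). Malignant-like barcodes were deeper, with medians of 26356.5 UMIs in the β-elemene library and 25956 UMIs in the vehicle library.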

How the data were processed

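Raw UMI counts, not normalised, were deposited for 32285 genes and each barcode of 2 libraries, in matrices written by Cell Ranger 7.1.0 per the file headers. Per the submitters' processing notes, Cell Ranger, STAR and the mm10 build were used. Neither the annotation release nor the rule for calling cells is given in the sources used here. Of 22863 deposited barcodes, 21664 with at least 200 genes and at most 20% mitochondrial UMIs were kept. The lowest deposited barcode had 500 UMIs.

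The members, gene lists and markers were chosen with earlier results of these data known. UMIs were summed over the members of each library and scaled to CPM, and ratios were given for genes with at least 50 UMIs over both sums. Their intervals came from the exact conditional binomial, shares had exact Clopper-Pearson intervals and differences of shares Newcombe intervals, all at 95% and for counting error only. Folds against a sum of 0 used a floor of 3 UMIs. Between the groups, the 14 highest and 14 lowest called genes were named if seen in at least 10% of members, and at 20% or more of the CPM outside the T cell gate, in the library where they were higher. Mitochondrial, ribosomal protein, haemoglobin, immunoglobulin and receptor segment genes and unnamed models were not eligible. Between members and other T cells 12 on each side were named outside the cycle lists. For each list the most abundant, the most extreme and the called members could be named. Malignant-like barcodes had at least 10 keratin UMIs per 10000 and neutrophil-like ones at least 1% S100a8 and S100a9, both with no UMI of the 4 T cell genes.

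Doublets were called with Scrublet in scanpy 1.11.5 (2.90% of β-elemene barcodes and 3.13% of vehicle barcodes) and kept. Other gates, thinning to 2000 UMIs, median-of-ratios scaling, mean CPM over cells, other UMI minimums, 10 CPM added and leaving out a gene's top cell were tried. The calls and intervals were tested on simulated data with known ratios, drawn as independent counts, so UMIs clustered in single cells were not covered. Software was Python 3.11.15, numpy 2.4.6, scipy 1.17.1, pandas 2.3.3 and matplotlib 3.10.9. GENCODE vM21 matched 99.8% of the genes, and promoter sequences came from RefSeq on GRCm38.p6. Promoters were matched by symbol for 47 of 60 G2 and mitosis genes and 38 of 47 S phase genes.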

Additional observations from a re-analysis of the deposited data

Results flagged for a closer look

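In 6 genes the members and the other T cells moved past the limits in opposite directions between the groups, and the difference between the classes was not tested. Ank was at a ratio of 2.52 in members and 0.666 in other T cells, with 47 of its 69 β-elemene UMIs in a single member, and at 0.905 in members without the top cell of each library. Cxcl10 was at 3.24 in members and 0.229 in other T cells, and at 2.21 in members without the mixed barcodes. Efna5 was at 3.95 in members and 0.620 in other T cells, with 38 of its 48 β-elemene UMIs in a single member. Sox4 was at 3.33 in members and 0.527 in other T cells, with 53 of its 64 β-elemene UMIs in a single member. Spp1 was at 2.18 in members and 0.667 in other T cells, and at 1.23 in members without the mixed barcodes. Xcl1, a chemokine that draws cross-presenting dendritic cells, was at 0.559 in members and 7.28 in other T cells, with 64 of its 76 vehicle UMIs in a single member.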

How the results depend on the processing

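No paired analysis was possible because each group was 1 library with no replicate number. The CD8 share stayed within its interval under every alternative gate and under thinning (-4.29 points), and so did the share of members except that the difference was -9.25 points (5 of 150 β-elemene and 18 of 143 vehicle T cells) when barcodes with 3 or more UMIs of another marker list were removed, which took 66 of 71 and 50 of 68 members. Higher and lower calls were 33 and 39 under that gate, 109 and 105 with no keratin UMI, 305 and 544 at 20 UMIs and 101 and 135 at 100 UMIs. Lower calls were 149 with no C1q UMI, 159 without the mixed barcodes and 174 in CD8 members. Genes higher and lower in members than in other T cells numbered 43 and 14 after thinning and 99 and 9 within CD8 cells, and 15 were lower without the mixed barcodes. The G2 and mitosis median was -0.63 in CD8 members and -0.38 without the mixed barcodes. Within CD8 members it was -0.51 by mean CPM, -0.53 with at least 3 UMIs of Mki67 and Top2a, -0.50 without called doublets and -0.53 without the mixed barcodes. The interferon-γ median was 0.32 in CD8 members, 0.43 without called doublets and 0.30 without the mixed barcodes. Medians turned for T cell receptor genes (-0.17) and cytotoxic genes (-0.16) in CD8 members, and for cytokines by mean CPM (-0.35), in CD8 members (-0.17) and without doublets (-0.19). Ratios turned in CD8 members for Efna5 (0.915), Ank (0.834), Bc1 (1.05) and Serping1 (1.37), without the top cell for Sox4 (0.835) and Ank (0.905), and without the mixed barcodes for Slit3 (1.19) and Tgfbr3 (1.79). The cause was not tested. All 28 named genes kept their calls under the other scaling, mean CPM and 10 CPM added, 14 without the mixed barcodes, 12 without the top cell and 4 of 27 in CD8 members, where fewer UMIs are summed. At 71 and 68 cells, genes under 50 UMIs were not compared.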

Other observations

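Lineages rare among the members were seen as single cells. Il17a, the cytokine of type 17 T cells, had 35 UMIs in 2 β-elemene members, 25 of them in a single cell, and 0 UMIs in vehicle members. The γδ receptor gene Trdc was seen in 2 members of each library, and Ncr1, a natural killer receptor, in 3 β-elemene members and 1 vehicle member. Lag3, a checkpoint receptor under the UMI minimum, had 19 UMIs in β-elemene members and 5 UMIs in vehicle members. These genes were picked after their values were seen.

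Dividing share differed between T cell classes as counted, but CD8 cells and cells with neither co-receptor lay closer after thinning. Members were 18.5% of 243 CD8 T cells in the β-elemene library and 18.1% of 210 in the vehicle library. They were 10.1% of 99 and 7.04% of 71 conventional CD4 cells. Of Foxp3 cells they were 16.7% of 24 (exact interval 4.74% to 37.4%) and 20.5% of 39 (9.30% to 36.5%). Among cells with neither co-receptor they were 7.55% of 159 and 9.93% of 151. With each cell thinned as above, members were 10.2% and 11.9% of CD8 cells, and 7.96% and 8.28% of cells with neither. They were then 0 of 49 and 1 of 44 conventional CD4 cells, and 2 of 12 and 2 of 24 Foxp3 cells. The differences between the classes were not tested.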
